A study of Mus musculus with 12 samples.

Results

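RNA from mouse V6.5 embryonic stem (ES) cells labelled Tet1 Tet2 DKO was compared with RNA from V6.5 cells labelled Tet1 KO, gene by gene. The members were the 3 DKO libraries (A, B and C, numbered 41) and the 3 Tet1KO libraries (A, B and C), which are 6 of the 12 libraries of the series. Both groups lack Tet1 by their labels, and the Tet2 knockout is what the labels set between them. V6.5 is a hybrid male mouse ES line. All cells grew on gelatin in serum medium with LIF, the GSK3 inhibitor CHIR99021 and the MEK inhibitor PD0325901, and were otherwise untreated. The other 6 libraries carry the genotype Tet1KO Tet2 N1300T (preparations 49 and 81) and enter here to share the estimate of spread and for values set beside DKO. Each genotype compared is 1 set of 3 libraries. Whether a set is 1 clone, and whether its libraries were cultured separately, is not stated, so the p-values rest on library-to-library spread that may be technical. An effect of the Tet2 genotype cannot be told apart from other properties of these sets of cells.

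TET1, TET2 and TET3 are dioxygenases that oxidise 5-methylcytosine to 5-hydroxymethylcytosine and further products, which are diluted at replication or cut out by the glycosylase TDG. DNMT3A and DNMT3B place methyl groups on new sites, and DNMT1 with UHRF1 copies them to the daughter strand. In mouse ES cells TET1 and TET2 are the main TET enzymes, and DNA methylation holds many germline genes silent and marks imprinted genes. MEK and GSK3 inhibition with LIF keeps ES cells in the naive state, low in ERK signalling and high in β-catenin activity.

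Deposited counts summed to 40675081 to 57054862 per DKO library and to 32951414 to 42200418 per Tet1KO library. A low-count filter kept 16014 of 35976 genes. Levels are CPM (counts scaled to a common library total), given in the order A, B, C, and are compared within a gene only. A gene was called when edgeR's quasi-likelihood test gave a Benjamini-Hochberg adjusted p under 0.05, and log2 fold changes are DKO over Tet1KO ± SE. The ES cell markers were high in both groups, with a summed level of 5970 to 6480 CPM over 8 genes in DKO and 6490 to 6580 CPM in Tet1KO, and none of them was called. Fibroblast (feeder) markers summed to 343 to 386 CPM in DKO and 346 to 403 CPM in Tet1KO over 18 genes, nearly all of it Vim, which ES cells also express. Of the 10 tested, Col1a1 (chromosome 11) and Twist1 were called higher, and neither held its call with each library left out in turn. None was called lower, and 1 was with DESeq2. Pdgfrb, given by level only and left out of later counts of reported genes, went the other way. It had 2.82, 3.16 and 3.35 CPM in DKO and 4.28, 4.93 and 4.2 CPM in Tet1KO. Col1a1 had 2.18, 4.26 and 2.86 CPM in DKO and 1.02, 1.91 and 1.5 CPM in Tet1KO, and Twist1 had 2.15, 1.75 and 2.42 CPM in DKO and 1.05, 0.837 and 1.5 CPM in Tet1KO. Acta2 had 3.01 to 4.33 CPM in DKO and 1.23 to 2.42 CPM in Tet1KO and was not called (0.94 ± 0.44, adjusted p 0.164), but was with no filter on low counts (adjusted p 0.000264) and in a fit of the 6 libraries alone (0.00902). Their part in the results was not tested. At the low end, no library exceeded 0.2 CPM for Col3a1, Postn, Dcn, Lum or Fap. Genes encoded by the mitochondrion held 2.02% to 2.46% of counts in DKO and 2.10% to 2.60% in Tet1KO. The Tet1KO libraries differed from DKO along chromosomes 6, 8 and 11, as described at the end of these results, so the chromosome is given for genes that lie there.

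The comparison called 2399 genes, 15.0% of those tested, with 1259 higher in DKO (7.86%) and 1140 lower (7.12%). The median log2 fold change over all tested genes was -0.005. Leaving out 1 library lowered the count most for Tet1KO A (1386 calls), DKO C (1402) and DKO A (1420). A narrower set held its call and direction with each of the 6 libraries left out in turn, 623 genes higher (3.89%) and 448 lower (2.80%), and it is called the retained set here.

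**Figure D1:**
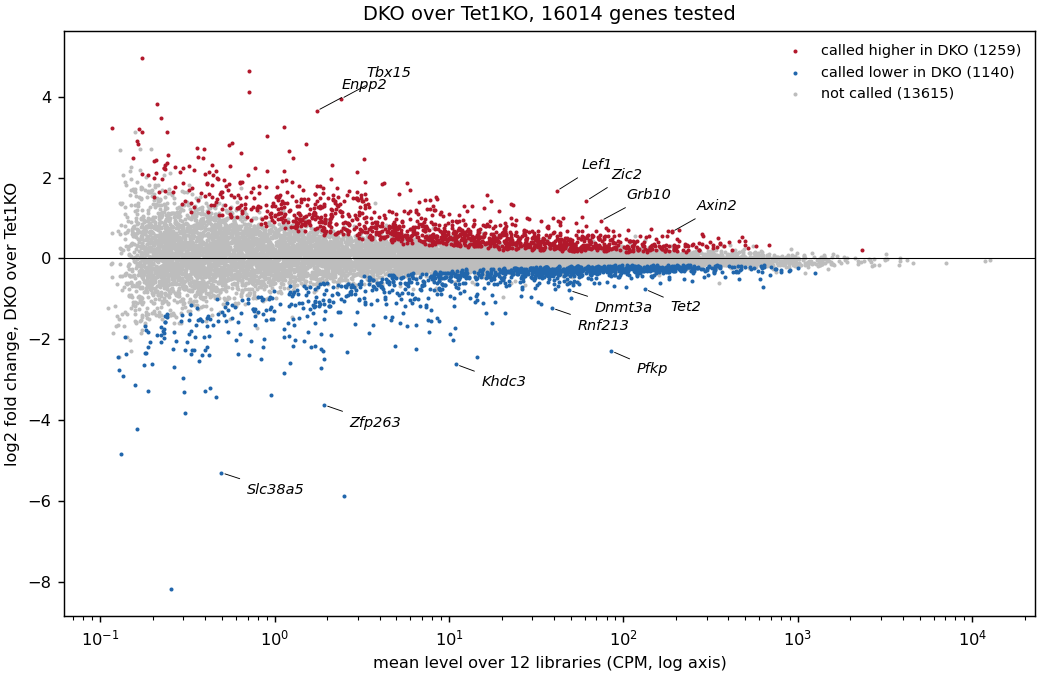
Each point is 1 of the 16014 tested genes, with the mean level over 12 libraries on the horizontal log axis (CPM) and the log2 fold change of DKO over Tet1KO on the vertical axis. Red points are the 1259 genes called higher in DKO, blue points the 1140 called lower and grey points the rest, and the widest changes lie among genes of low level.

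The genes for cytosine oxidation and methylation were taken first. Tet2 (chromosome 3, 133463677 to 133545136 on mm10) stood at 93.7, 92.0 and 97.9 CPM in DKO and at 180.7, 158.1 and 142.2 CPM in Tet1KO. The groups did not overlap, the DKO level was lower by 0.76 on the log2 scale (log2 fold change -0.76 ± 0.09, adjusted p 1.43e-05), and a transcript was counted in every DKO library. Counts summed over a gene cannot show a short deletion, so they check the label only for a loss of transcript. Tet1, knocked out in both groups by the labels, was counted at 173.8, 167.8 and 180.2 CPM in DKO and at 173.7, 131.2 and 153.1 CPM in Tet1KO and was not called (0.19 ± 0.10, adjusted p 0.205). Its log2 fold change was 0.28 without Tet1KO A and 0.09 without Tet1KO B, and with no filter on low counts it was called higher (0.19, adjusted p 0.0445). Tet3 (chromosome 6), the remaining TET gene, was lower in DKO, at 6.50, 5.38 and 5.86 CPM, than in Tet1KO, at 8.99, 7.23 and 9.14 CPM (-0.51 ± 0.14, adjusted p 0.0202). That call was lost without DKO B, DKO C, Tet1KO A or Tet1KO C. Tdg was not called (-0.12 ± 0.08).

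The 2 active de novo methyltransferases moved in opposite directions. Dnmt3a (chromosome 12, 3801559 to 3914443) stood at 39.6, 40.4 and 38.1 CPM in DKO and at 74.9, 65.6 and 63.8 CPM in Tet1KO, a log2 fold change of -0.79 ± 0.08 (adjusted p 4.69e-06). Dnmt3b (chromosome 2, 153649411 to 153687730) stood at 240.9, 244.6 and 241.6 CPM in DKO and at 159.6, 154.1 and 208.2 CPM in Tet1KO, a log2 fold change of 0.48 ± 0.11 (adjusted p 0.00724). Both pairs of groups were separate, and Tet1KO C lay nearest to DKO for each gene. The Dnmt3b call was lost without Tet1KO A. Uhrf1, which guides maintenance methylation, was lower in DKO, at 709.7, 716.4 and 668.7 CPM, than in Tet1KO, at 872.1, 842.4 and 778.9 CPM (-0.25 ± 0.06, adjusted p 0.00722), while Dnmt1 was not called (-0.11 ± 0.07). Zbtb33 on the X chromosome, whose product Kaiso binds methylated CpG, rose by 0.44 ± 0.10. Of 31 genes in the list of TET enzymes, glycosylases, methyltransferases, readers and TET regulators, 3 were called higher (9.68%) and 5 lower (16.1%), beside 7.86% and 7.12% of all genes, and 1 and 3 were in the retained set. Without DKO C 3 of the list were lower, and without Tet1KO A 1 was higher.

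**Figure D2:**
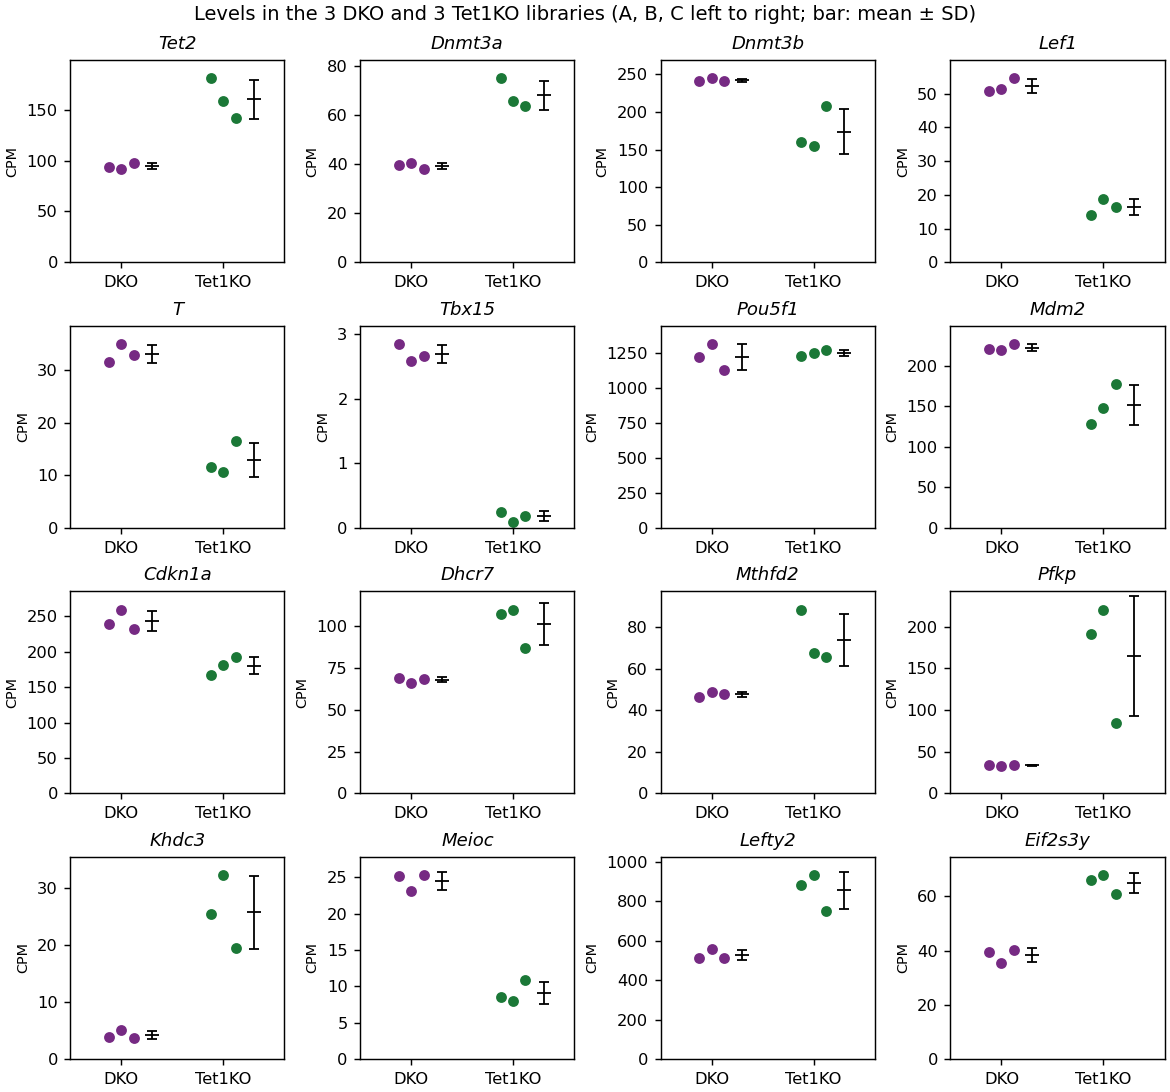
Levels (CPM, linear axes from 0) of 16 genes described in these results, with 1 point for each of the 3 DKO libraries on the left and each of the 3 Tet1KO libraries on the right, and the mean ± SD beside them. Tet2 stood at 92.0 to 97.9 CPM in DKO and 142.2 to 180.7 CPM in Tet1KO, the Tet1KO libraries scattered more widely than DKO for Pfkp, and Pou5f1 overlapped between the groups.

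The largest rises, among genes averaging 1 CPM or more where higher, were genes of low level. Tbx15 (chromosome 3, 99240348 to 99354260), a T-box factor of limb and skeletal development, stood at 2.85, 2.58 and 2.67 CPM in DKO and at 0.248, 0.0957 and 0.190 CPM in Tet1KO, or 424 counts in DKO against 20 in Tet1KO. That is 15.4-fold (log2 fold change 3.95 ± 0.27, adjusted p 1.56e-07). Enpp2, which encodes autotaxin, had 2.32, 3.26 and 3.54 CPM in DKO against 0.124, 0.191 and 0.380 CPM in Tet1KO. Pde4b, a cAMP phosphodiesterase, had 1.51 to 2.03 CPM in DKO against 0.0949 to 0.248 CPM in Tet1KO. Others were Pou4f3, Hand1 (chromosome 11), Comp (chromosome 8), Sp8, Gbp2b and St8sia3, with log2 fold changes of 2.24 (St8sia3) to 3.04 (Pou4f3) and no overlap between the groups.

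The largest falls were led by Slc38a5 on the X chromosome, a glutamine transporter, with 0.0344, 0 and 0.0702 CPM in DKO (6 counts) and 2.29, 1.46 and 1.12 CPM in Tet1KO (182 counts). Zfp263, a zinc-finger gene, had 0.516, 0.681 and 0.526 CPM in DKO and 11.7, 5.05 and 4.58 CPM in Tet1KO (-3.63 ± 0.36). Ufsp2 (chromosome 8), a protease of the ubiquitin-like modifier UFM1, had 0.825, 0.779 and 0.789 CPM in DKO and 9.18, 3.47 and 3.25 CPM in Tet1KO (-2.71 ± 0.37). For both genes Tet1KO A was the highest library by over 2-fold, and the groups were separate without it. Trpm1, a cation channel, had 4.35 to 4.60 CPM in DKO and 18.5 to 29.6 CPM in Tet1KO (-2.44 ± 0.25). Serpina3m, Khdc3, Nkx6-3 (chromosome 8), Tgfbi, Card6 and Xlr3c were the others, with log2 fold changes of -2.39 (Xlr3c) to -3.43 (Serpina3m). Xlr3c has near-identical copies on the X chromosome, so its share of reads is uncertain.

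Among genes of at least 50 CPM in the higher group, the largest rise was that of Lef1, a nuclear effector of Wnt signalling. Zic2, a zinc-finger factor of primed pluripotency and neural development, stood at 67.3, 66.6 and 65.7 CPM in DKO and at 22.3, 34.9 and 16.8 CPM in Tet1KO, 2.69-fold (1.43 ± 0.20, adjusted p 0.000119). Perp, Cldn6, Sall2, Grb10 (chromosome 11), Syne2 and Plk2 followed, with log2 fold changes of 0.87 (Plk2) to 1.02 (Perp). The largest fall was that of Pfkp (chromosome 13, 6579874 to 6649060), the platelet isoform of phosphofructokinase, which commits glucose to glycolysis. It stood at 34.2, 33.1 and 34.1 CPM in DKO and at 191.6, 220.6 and 84.0 CPM in Tet1KO, so that the Tet1KO libraries spread over more than 2-fold while DKO was even (-2.29 ± 0.38, adjusted p 0.000549). Rnf213 (chromosome 11), a large ubiquitin ligase, had 21.6 to 22.6 CPM in DKO and 38.6 to 60.5 CPM in Tet1KO (-1.23 ± 0.22). Fam25c (-1.13 ± 0.11), Parvb, which links integrins to actin (-0.98 ± 0.09), Pramef12 (-0.75 ± 0.10) and the Y-linked Eif2s3y made up the rest beside Dnmt3a and Tet2. All genes of these 3 paragraphs were in the retained set.

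Developmental transcription factors were described by family. Over 15 families, 178 of 294 genes passed the low-count filter. Of these 48 were higher (27.0%) and 9 lower (5.06%), beside 7.86% and 7.12% of all genes, with 30 and 4 in the retained set. The median log2 fold change of those that passed was 0.22. Without DKO A or Tet1KO B 5 were lower. Genes near the filter could pass through the group in which they were high, so these counts describe the families and support nothing beyond that.

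In the T-box family 12 of 17 genes passed the filter, with 5 higher (41.7%) and 1 lower (8.33%), beside 7.86% and 7.12% of all genes. T (Brachyury, chromosome 17, 8434423 to 8442496), the factor of the primitive streak, stood at 31.4, 34.9 and 32.8 CPM in DKO and at 11.5, 10.6 and 16.5 CPM in Tet1KO (1.36 ± 0.20, adjusted p 0.000161). Tbx20, a heart factor, had 6.60, 7.20 and 6.74 CPM in DKO and 4.06, 4.0 and 4.51 CPM in Tet1KO (0.71 ± 0.13). Tbx4 (chromosome 11) and Tbx5, factors of the hind limb and of the forelimb and heart, were below 2 CPM in all 6 libraries. Tbx4 had 1.63, 1.75 and 1.74 CPM in DKO and 0.155, 0.574 and 0.380 CPM in Tet1KO, and Tbx5 had 124 counts in DKO against 5 in Tet1KO. Tbx3, which acts in naive ES cells, went the other way, with 152.5, 153.4 and 150.7 CPM in DKO and 184.6, 222.4 and 167.0 CPM in Tet1KO (-0.33 ± 0.09, adjusted p 0.0195). That call was lost without any 1 DKO library or Tet1KO B.

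Homeobox genes were mostly at trace levels. Of 39 Hox genes 9 passed the filter and 6 were called higher (66.7%, beside 7.86% of all genes). The count was 5 to 3 with 1 library left out (3 without DKO B, DKO C or Tet1KO B). Off chromosomes 6, 8 and 11, 2 of 5 were higher. Hoxc13 had 3.75 to 4.65 CPM in DKO and 2.20 to 2.66 CPM in Tet1KO, and Hoxb13 (chromosome 11) stayed under 1 CPM in both (1.64 ± 0.35). Irx2, an Iroquois factor, stood at 9.65 to 11 CPM in DKO and at 3.21 to 4.32 CPM in Tet1KO (1.45 ± 0.15, adjusted p 5.35e-06). Nkx6-3 and Pou2f3 were homeobox genes that fell. Pou2f3, a POU factor, had 5.14, 5.79 and 6.47 CPM in DKO and 24.6, 16.8 and 9.47 CPM in Tet1KO (-1.54 ± 0.28, adjusted p 0.00120).

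In the retained set the nuclear receptors had 5 higher of 30 tested, and the ZIC and GLI family had 3 higher and 1 lower of 9. The SOX family had 2 higher of 15, the KLF and SP family 2 of 26 and the forkhead family 2 of 28. Over all genes 3.89% were higher and 2.80% lower in that set. Glis3, a Krüppel-like zinc-finger factor, had 10.4, 11.9 and 11.6 CPM in DKO and 4.87, 4.76 and 5.60 CPM in Tet1KO (1.15 ± 0.11, adjusted p 3.93e-06), and Zic5 rose by 0.57 ± 0.13. Sox3 on the X chromosome, of neural progenitors, had 12.9 to 16.5 CPM in DKO and 4.65 to 7.64 CPM in Tet1KO, and Sox10, of the neural crest, rose by 1.53 ± 0.31 at under 2 CPM. Of 49 nuclear receptor genes 30 passed the filter, with 10 called higher (33.3%) and 1 lower (3.33%), beside 7.86% and 7.12% of all genes. The count of higher ones was 5 without Tet1KO A, 6 without any 1 DKO library and 8 or 9 without Tet1KO B or C. Nr3c1, the glucocorticoid receptor, had 21.9, 19.9 and 19.7 CPM in DKO and 12.6, 13.5 and 14.6 CPM in Tet1KO (0.59 ± 0.09).

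Wnt signalling was examined from ligand to target, in medium that already holds a GSK3 inhibitor in both groups. Wnt ligands bind Frizzled receptors, β-catenin then joins TCF and LEF factors on DNA, and target genes include feedback inhibitors such as Axin2 and Notum. Of 72 genes on the list 62 passed the filter. Of these 16 were called higher (25.8%) and 4 lower (6.45%), beside 7.86% and 7.12% of all genes. The retained set held 13 and 2. Without DKO A or DKO C 2 were lower. Of the 45 tested members off chromosomes 6, 8 and 11, 9 were higher and 2 lower.

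Among 13 tested ligands 3 were higher and none lower (5 were higher without Tet1KO C). Wnt8a stood at 7.46, 8.52 and 7.86 CPM in DKO and at 1.64, 1.96 and 2.97 CPM in Tet1KO (1.84 ± 0.33, adjusted p 0.000973). Wnt3 (chromosome 11) had 4.95, 5.84 and 4.21 CPM in DKO and 1.24, 1.15 and 3.11 CPM in Tet1KO, and Wnt5b (chromosome 6) had 10.7 to 14.4 CPM in DKO and 7.19 to 9.23 CPM in Tet1KO. Tet1KO C was the Tet1KO library nearest to DKO for each of the 3. Of 16 tested receptors 2 were higher (12.5%) and 1 lower (6.25%), beside 7.86% and 7.12% of all genes, and 2 were lower without Tet1KO B. Fzd10 rose by 0.39 ± 0.08, Ror1, a receptor of non-canonical Wnt ligands, rose by 1.01 ± 0.22, and Fzd7 fell to 42.3 to 45.8 CPM in DKO, against 56.0 to 66.7 CPM in Tet1KO (-0.45 ± 0.08).

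Among 9 nuclear effectors Lef1 was the gene that rose. Lef1 (chromosome 3, 131110297 to 131224357) stood at 50.7, 51.3 and 54.5 CPM in DKO and at 14, 18.7 and 16.4 CPM in Tet1KO, 3.18-fold, with the groups far apart (1.67 ± 0.11, adjusted p 1.25e-07). Tcf7 (chromosome 11), its close relative, had 84.6, 85.0 and 86.7 CPM in DKO and 69.9, 80.0 and 68.0 CPM in Tet1KO and missed the threshold (0.23 ± 0.08, adjusted p 0.0644), which it passed without Tet1KO B (adjusted p 0.0268). Tcf7l1 (chromosome 6), which represses Wnt targets in ES cells, was lower in DKO, at 54.7, 61.2 and 55.7 CPM, than in Tet1KO, at 73.2, 90.5 and 62.8 CPM (-0.40 ± 0.11, adjusted p 0.0187). The Tcf7l1 call was lost without DKO A, DKO C or Tet1KO B.

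Of 17 tested feedback inhibitors 6 were higher and 1 lower, but off chromosomes 6, 8 and 11 the count was 1 of 10. Axin2 (chromosome 11, 108917828 to 108950783), the scaffold of the β-catenin destruction complex, stood at 219.5, 220.4 and 223.4 CPM in DKO and at 125.4, 146.2 and 150.1 CPM in Tet1KO (0.65 ± 0.08, adjusted p 3.95e-05). Notum (chromosome 11), which removes the lipid of Wnt ligands, had 173.5, 180.5 and 168.7 CPM in DKO and 94.3, 135.8 and 95.9 CPM in Tet1KO, and Rnf43 (chromosome 11), which clears Frizzled receptors, rose by 0.78 ± 0.15. Dkk3, placed in this role by the list, was the 1 riser off chromosomes 6, 8 and 11. It had 7.43, 7.06 and 7.03 CPM in DKO and 2.36, 2.82 and 2.73 CPM in Tet1KO (1.44 ± 0.13, adjusted p 1.79e-06). Whether Dkk3 acts in Wnt feedback in these cells was not tested. Sfrp1 (chromosome 8), a secreted binder of Wnt ligands, fell to 95.0 to 96.3 CPM in DKO, against 124.3 to 143.6 CPM in Tet1KO (-0.48 ± 0.06, adjusted p 3.52e-05). The median of all genes was 0.06 on chromosome 11 and -0.10 on chromosome 8 on the log2 scale. The part of these chromosome shifts in the changes above was not tested.

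Of 7 target transcription factors 4 were higher and 1 lower, the lower one being Myc (-0.29 ± 0.09, adjusted p 0.0336), which lost its call with any 1 library left out. Cdx2, a caudal-type factor, stood at 7.24, 8.57 and 7.09 CPM in DKO and at 1.86, 1.39 and 3.01 CPM in Tet1KO, 3.63-fold (1.86 ± 0.21, adjusted p 1.81e-05). Sp8 had 3.11 to 3.77 CPM in DKO and 0.479 to 0.854 CPM in Tet1KO. Sp5, a feedback factor that β-catenin induces directly, had 31.8, 35.5 and 29.0 CPM in DKO and 12.2, 11.8 and 23.6 CPM in Tet1KO (1.01 ± 0.31, adjusted p 0.0348), and its call was lost when any 1 library other than Tet1KO C was left out.

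The promoters of T and Sp5 are shown because TCF and LEF factors bind motifs that contain CTTTGA, and both hold it. The sequences are the 250 bases before the start site in RefSeq's GRCm38.p6 table, and capitals mark CTTTGA, or TCAAAG where it lies on the other strand. T spans chr17:8434173-8434422 on the plus strand and Sp5 spans chr2:70474673-70474922 on the plus strand.
T: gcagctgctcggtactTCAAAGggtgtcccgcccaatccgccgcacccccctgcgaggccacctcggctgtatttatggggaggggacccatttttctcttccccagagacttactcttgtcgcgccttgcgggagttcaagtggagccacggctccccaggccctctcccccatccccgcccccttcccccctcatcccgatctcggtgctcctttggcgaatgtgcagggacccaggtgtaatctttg
Sp5: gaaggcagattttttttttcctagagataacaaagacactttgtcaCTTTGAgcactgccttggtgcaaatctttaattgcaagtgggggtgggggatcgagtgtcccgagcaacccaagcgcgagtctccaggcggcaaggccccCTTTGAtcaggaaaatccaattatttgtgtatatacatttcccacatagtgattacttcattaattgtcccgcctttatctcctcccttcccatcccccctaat
T held the motif once and Sp5 held it 2 times. In the 250 bases before the first start listed for each gene, 1261 of 11707 tested genes with an entry (10.8%) held CTTTGA on either strand, and so did 3 of the 11 genes of the Wnt list that were called higher and had an entry (Ror1, T and Sp5). These matches are a description of the letters and show no binding.

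**Figure D3:**
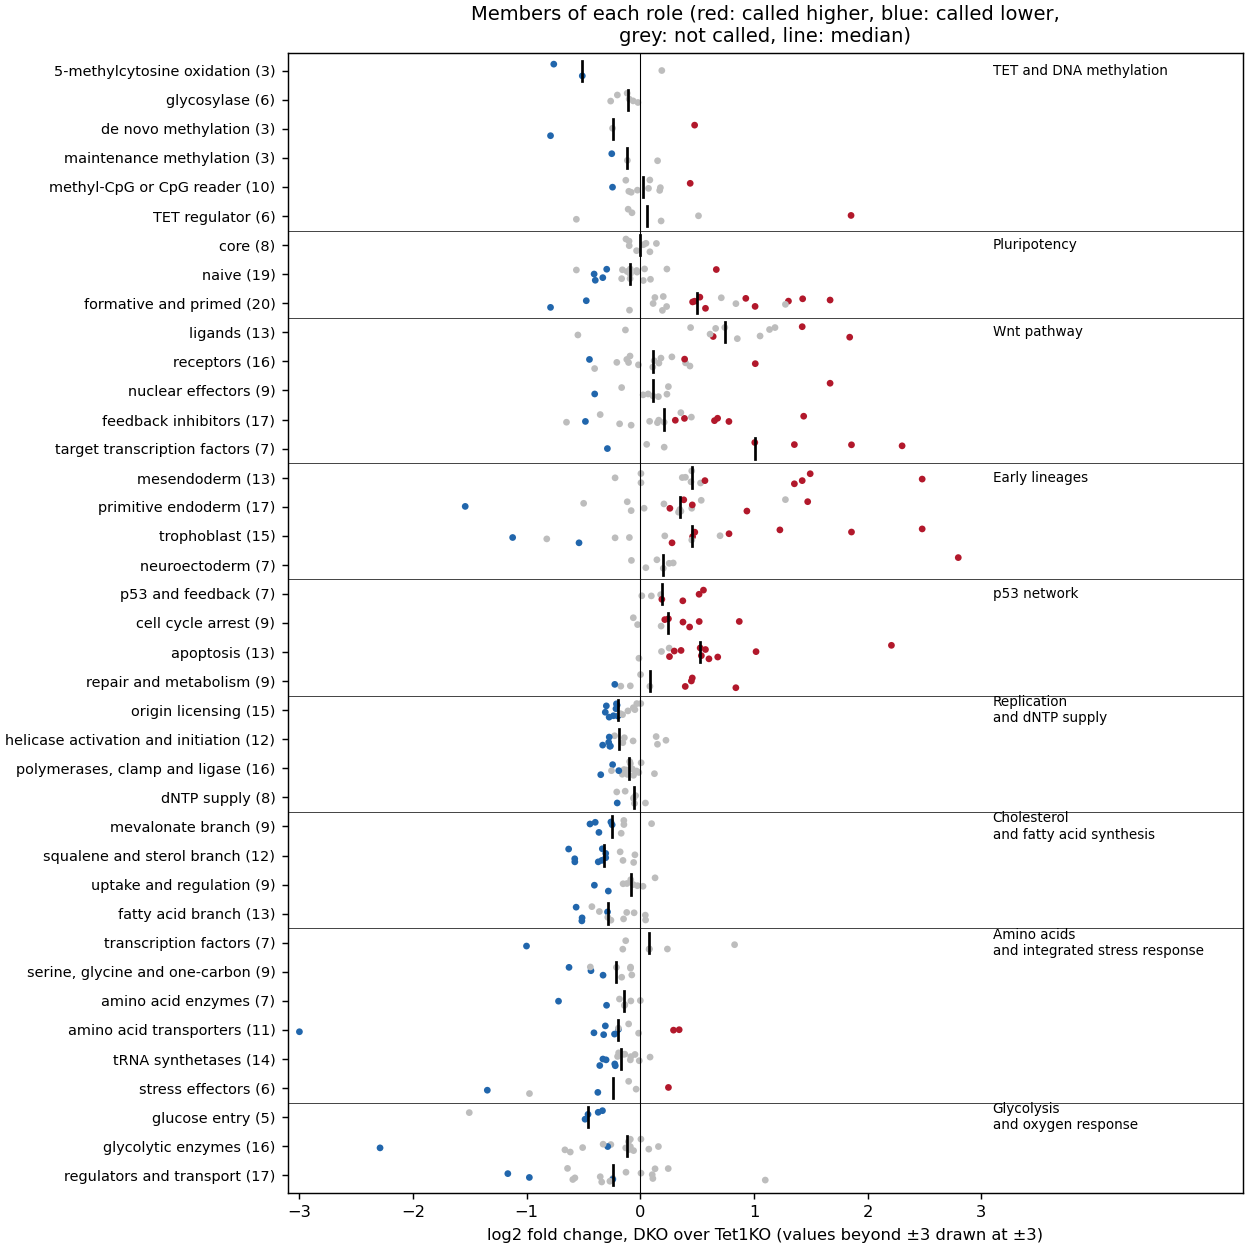
Log2 fold changes of DKO over Tet1KO (horizontal axis) for the tested members of 9 gene lists, 1 row per role with the number of tested members in brackets. Red, blue and grey points are genes called higher, called lower and not called, and the black line is the median of the role. The roles of the p53 network lie mostly right of 0, and those of cholesterol synthesis and replication mostly left.

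The core pluripotency factors did not separate the groups. None of 8 was called. Pou5f1 had 1223.7, 1314.9 and 1131.8 CPM in DKO and 1232.4, 1249.4 and 1273.4 CPM in Tet1KO (-0.03 ± 0.06), and Sox2 and Nanog (chromosome 6) had log2 fold changes of 0.05 ± 0.07 and -0.10 ± 0.06. Of 19 naive factors 1 was higher (5.26%) and 4 were lower (21.1%), beside 7.86% and 7.12% of all genes. Without DKO A, DKO C or Tet1KO B 2 were lower. Tfcp2l1, of the naive network, had 806.2, 803.6 and 832.8 CPM in DKO and 1038.6, 989.7 and 970.3 CPM in Tet1KO (-0.30 ± 0.06, adjusted p 0.00220). Prdm14, which holds back DNA methyltransferases in naive ES cells, had 27.5, 26.5 and 29.8 CPM in DKO and 39.1, 38.0 and 34.2 CPM in Tet1KO (-0.41 ± 0.09). Esrrb (-0.09 ± 0.05) and Klf4 (-0.03 ± 0.07) were not called.

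Of 20 tested formative and primed markers 9 were higher and 2 lower, with a median log2 fold change of 0.50, and 6 and 1 were in the retained set. Without DKO C or Tet1KO A 1 was lower. Sall2, a zinc-finger factor, had 49.9, 51.7 and 49 CPM in DKO and 24.5, 27.2 and 27.3 CPM in Tet1KO (0.93 ± 0.07, adjusted p 6.59e-07). Cldn6, a tight junction protein of early epiblast, had 56.0, 56.5 and 53.3 CPM in DKO and 27.2, 28.6 and 26.4 CPM in Tet1KO (1.01 ± 0.09). With Lef1, Zic2, Zic5 and Sox3 these make up the 6 retained risers, and Dnmt3a is the retained member that fell.

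Signalling feedback genes were called in both directions, 6 higher (10%) and 12 lower (20.0%) of 60 tested, beside 7.86% and 7.12% of all genes, with 2 and 7 in the retained set. Scaled by library size alone, 10 were higher and 10 lower, and with no filter on low counts 10 were higher. Without DKO C 7 were lower, and without any 1 DKO library or Tet1KO A 2 or 3 were higher. The lower ones included inhibitors of Nodal. Lefty2 (chromosome 1, 180893108 to 180899107) stood at 509.9, 556.8 and 514.1 CPM in DKO and at 880.5, 932.3 and 751.4 CPM in Tet1KO (-0.70 ± 0.12, adjusted p 0.000764), and its neighbour Lefty1 at 54.1, 59.0 and 47.8 CPM in DKO and at 78.8, 93.5 and 71.6 CPM in Tet1KO (-0.60 ± 0.14, adjusted p 0.00590). Nodal itself had 80.8 to 90.8 CPM in DKO and 71.3 to 83.9 CPM in Tet1KO and was not called (0.13 ± 0.07). Bmp4 fell by 0.46 ± 0.08. Id3, a BMP target, had 38.6, 38.1 and 31.0 CPM in DKO and 44.4, 48.1 and 49.6 CPM in Tet1KO (-0.40 ± 0.09), and lost its call without DKO C. Etv1, a factor downstream of ERK, fell to 6.08 to 7.84 CPM in DKO, against 11.2 to 11.7 CPM in Tet1KO, and Pim1, a target of LIF and STAT3, fell by 0.42 ± 0.07. In the retinoid role Crabp2, a carrier of retinoic acid, had 6.28 to 7.65 CPM in DKO and 2.11 to 2.92 CPM in Tet1KO (1.40 ± 0.15, adjusted p 6.95e-06), and Stra8 (chromosome 6) fell by 2.00 ± 0.36 at under 3 CPM.

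Several of the early lineage genes named here were at low levels. Of 49 tested 17 were higher (34.7%) and 3 lower (6.12%), with 9 and 2 in the retained set. Over all genes the shares were 7.86% and 7.12%. Of 64 listed 15 did not pass the filter, and genes near it could pass through the group in which they were high. The count of higher ones was 10 without DKO A or DKO B and 11 without Tet1KO A. In the mesendoderm role (5 higher of 13), Evx1 (chromosome 6), a factor of the posterior primitive streak, had 4.38, 3.02 and 3.30 CPM in DKO and 1.58, 0.861 and 1.40 CPM in Tet1KO (1.49 ± 0.28), and Hand1 (chromosome 11), of heart and extraembryonic mesoderm, rose by 2.48 ± 0.27 at under 2 CPM. In the primitive endoderm role (5 higher and 1 lower of 17), Gata4 had 3.10, 3.31 and 3.81 CPM in DKO and 1.52, 1.32 and 0.878 CPM in Tet1KO (1.47 ± 0.20), and was its retained riser. The count of primitive endoderm risers was 2 without DKO A, DKO B or Tet1KO A and 3 without Tet1KO B. The 9 primitive endoderm markers summed to 594 to 621 CPM in DKO and to 555 to 634 CPM in Tet1KO, so the groups overlapped.

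In the trophoblast role 7 of 15 were higher (46.7%) and 2 lower (13.3%), beside 7.86% and 7.12% of all genes. Without DKO A or DKO B 4 were higher. Besides Cdx2, Krt8, a keratin of simple epithelia, had 64.6, 66.6 and 60.7 CPM in DKO and 43.9, 42.9 and 50.8 CPM in Tet1KO (0.48 ± 0.09), and Esx1 on the X chromosome, of the placenta, rose by 1.23 ± 0.21. Tead4 (chromosome 6) had 25.9, 28.4 and 25.6 CPM in DKO and 43.0, 38.4 and 34.7 CPM in Tet1KO (-0.54 ± 0.08), and Gata2 (chromosome 6) had 2.24 to 2.42 CPM in DKO and 4.28 to 5.84 CPM in Tet1KO (-1.12 ± 0.16). The 8 trophoblast markers summed to 96.4 to 102 CPM in DKO and to 74.8 to 78.9 CPM in Tet1KO, most of it Krt8. That sum leaves out Tead4 and Gata2, so it describes those 8 only. Among them Eomes had 20.9, 22.5 and 24.4 CPM in DKO and 30.5, 27.9 and 20.9 CPM in Tet1KO. Krt7 had 1.15, 0.9 and 0.876 CPM in DKO and 1.55, 1.34 and 2.3 CPM in Tet1KO. Eomes and Krt7 are given by level only. Whether a few differentiated cells take part in these values was not tested. In the neuroectoderm role 7 of 15 passed the filter and Pax6 rose, with 153 counts in DKO against 16 in Tet1KO. Fewer cells of a type and less RNA per cell cannot be told apart in such bulk samples.

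Genes of the p53 network made up a broad shift. The transcription factor p53 turns on its own inhibitor Mdm2, the cell cycle inhibitor Cdkn1a and genes of apoptosis and repair, and its mRNA need not change when the protein does. Of 38 tested genes 24 were called higher (63.2%) and 1 lower (2.63%), beside 7.86% and 7.12% of all genes, with a median log2 fold change of 0.33 beside -0.005 for all genes. With 1 library left out 18 (Tet1KO A) to 24 (Tet1KO C) were higher, and 18 were in the retained set. Earlier results of these data had shown this shift, so the counts are a description by role.

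In the feedback role Trp53 (chromosome 11) was not called, at 676.9, 706.6 and 692.8 CPM in DKO and 623.8, 667.3 and 650.3 CPM in Tet1KO (0.10 ± 0.06, adjusted p 0.277). Mdm2 (chromosome 10, 117688875 to 117710758), the ubiquitin ligase of p53, stood at 220.5, 218.7 and 226.5 CPM in DKO and at 128.0, 147.7 and 177.0 CPM in Tet1KO (0.56 ± 0.12, adjusted p 0.00383). Mdm4, its partner, had 276.6 to 301.6 CPM in DKO and 215.8 to 230.7 CPM in Tet1KO, and Ccng1 (chromosome 11), a cyclin that p53 induces, had 410.4, 388.8 and 420.7 CPM in DKO and 269.7, 254.7 and 328.1 CPM in Tet1KO. The groups were separate for each of these, with Tet1KO C nearest to DKO for Mdm2 and Ccng1. In the arrest role 6 of 9 were higher (3 without Tet1KO A). Cdkn1a had 238.8, 259.3 and 231.6 CPM in DKO and 167.4, 180.9 and 191.7 CPM in Tet1KO (0.43 ± 0.08, adjusted p 0.000961), Plk2, a stress-induced kinase, had 67.4 to 74.2 CPM in DKO and 32.2 to 46.9 CPM in Tet1KO, and Sfn (0.52 ± 0.08) holds cells before mitosis.

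The apoptosis role held 10 higher genes of 13. Perp, a membrane effector of p53, stood at 81.1, 81.4 and 75.9 CPM in DKO and at 29.8, 33.0 and 54.5 CPM in Tet1KO (1.02 ± 0.20, adjusted p 0.00231). Trp53inp1 had 346.5, 332.8 and 365.2 CPM in DKO and 206.9, 210.5 and 269.6 CPM in Tet1KO, and Eda2r on the X chromosome, a death receptor, had 68.3 to 70.8 CPM in DKO and 37.0 to 53.1 CPM in Tet1KO. The BH3-only genes Pmaip1 and Bbc3 rose by 0.54 ± 0.07 and 0.53 ± 0.10. Fas, a death receptor, rose at trace level, with 64 counts in DKO against 10 in Tet1KO. In the role of repair and metabolism 4 of 9 were higher. Ak1, an adenylate kinase, had 166.0 to 175.0 CPM in DKO and 127.3 to 131.3 CPM in Tet1KO (0.40 ± 0.05, adjusted p 0.000104), Ercc5, a nuclease of excision repair, rose by 0.46 ± 0.07, and Dcxr (chromosome 11), a xylulose reductase, by 0.84 ± 0.16. Tigar (chromosome 6), which lowers glycolytic flux, was the member called lower (-0.22 ± 0.06), and lost its call without DKO A, DKO C or Tet1KO A.

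**Figure D4:**
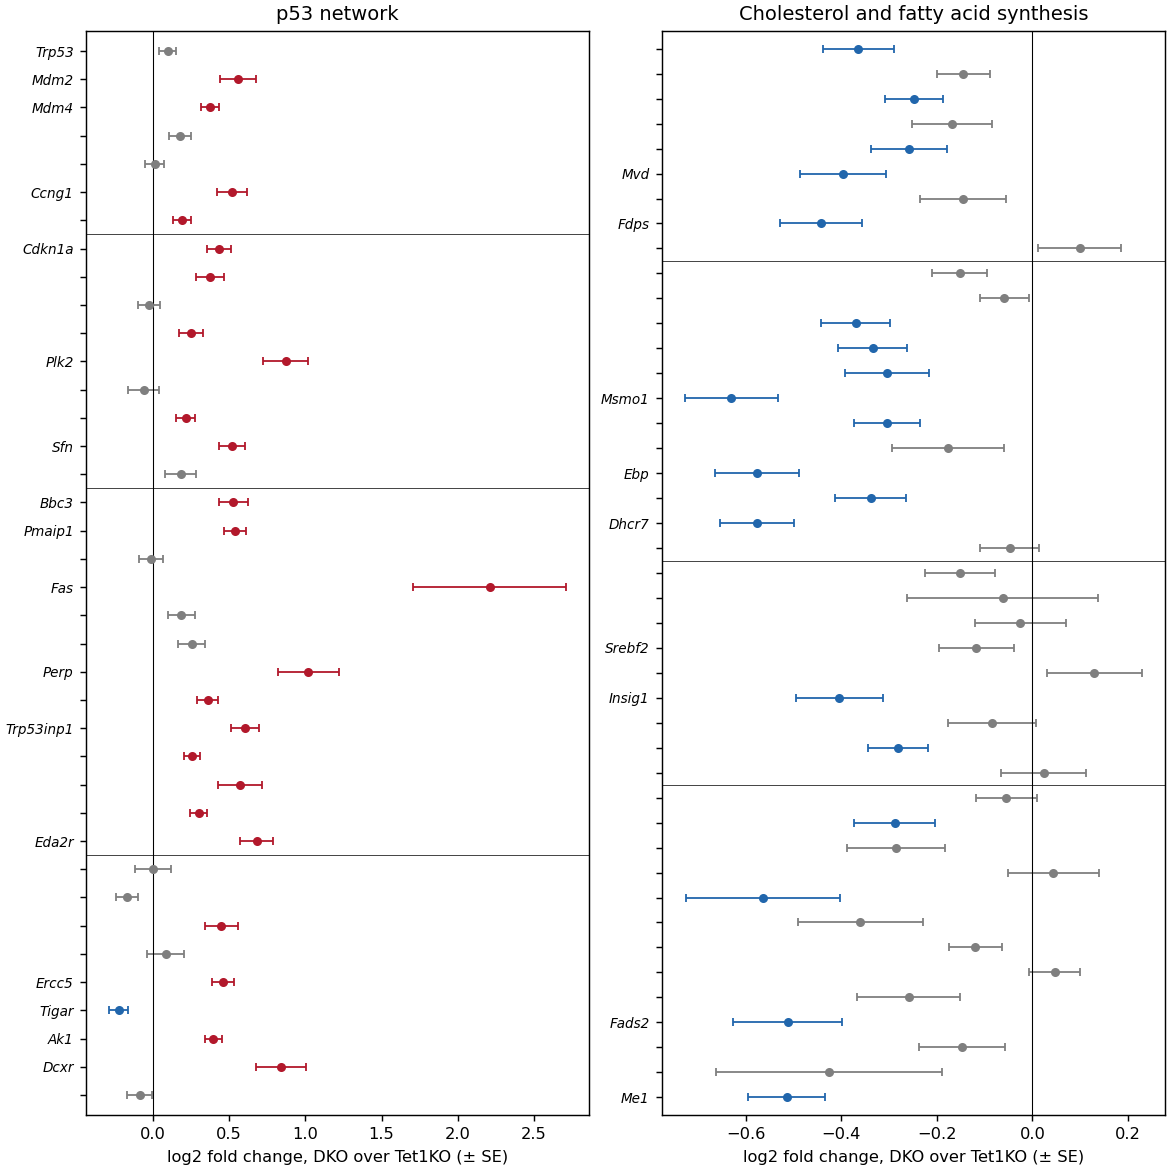
Log2 fold change of DKO over Tet1KO (points) with its SE (bars) for the 38 tested genes of the p53 network on the left and the 43 genes of cholesterol and fatty acid synthesis on the right, ordered by role with lines between roles and with names for genes described in the text. Red points are called higher, blue called lower and grey not called, with 24 red points on the left and 19 blue points on the right.

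Genes of cholesterol and fatty acid synthesis were lower. In this pathway SREBP2 switches on the mevalonate and sterol enzymes when cell cholesterol is low. Of 43 genes none was called higher and 19 were lower (44.2%), beside 7.12% lower of all genes, with a median log2 fold change of -0.26 beside -0.005. In the retained set were 14 (2.80% of all genes were lower in it). The mevalonate branch had 5 of 9 lower (3 without DKO A or Tet1KO A). Fdps, which makes farnesyl diphosphate, had 95.9, 99.7 and 97.7 CPM in DKO and 144.5, 135.4 and 118.9 CPM in Tet1KO (-0.44 ± 0.09, adjusted p 0.00202), and Mvd (chromosome 8) fell by 0.40 ± 0.09. The sterol branch had 8 of 12 lower, 7 of them in the retained set. Dhcr7, the last step to cholesterol in a branch of the route, stood at 69.1, 66.1 and 68.6 CPM in DKO and at 107.2, 109.9 and 87.1 CPM in Tet1KO (-0.58 ± 0.08, adjusted p 7.61e-05). Ebp on the X chromosome, the sterol isomerase, had 46.1, 45.5 and 49 CPM in DKO and 70.0, 65.5 and 74.2 CPM in Tet1KO, and Msmo1 (chromosome 8), a sterol demethylase, had 39.0, 38.2 and 40.5 CPM in DKO and 71.8, 56.6 and 54.2 CPM in Tet1KO. The groups were separate for all 3.

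The uptake and regulation role moved less, with 2 of 9 lower. Insig1, which retains SREBP in the endoplasmic reticulum and is itself a target, had 91.3, 88.4 and 85.7 CPM in DKO and 117.5, 130.6 and 103.2 CPM in Tet1KO (-0.40 ± 0.09, adjusted p 0.00610). Srebf2, which encodes SREBP2, was not called (-0.12 ± 0.08, adjusted p 0.348). In the fatty acid branch 4 of 13 were lower, and 2 when any 1 library other than Tet1KO C was left out. Those 2, retained throughout, were Fads2, a desaturase, with 53.8 to 55.8 CPM in DKO and 64.6 to 86.8 CPM in Tet1KO (-0.51 ± 0.11), and Me1, the malic enzyme that supplies NADPH, with 19.2 to 20.4 CPM in DKO and 26.2 to 29.9 CPM in Tet1KO (-0.51 ± 0.08).

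The number of glycolysis genes called lower depended on single libraries and on the fit. Of 38 tested 9 were called lower (23.7%, beside 7.12% of all genes) and none higher, and the count was 4, 6 and 3 without DKO A, B and C and 3, 3 and 14 without Tet1KO A, B and C. It was 21 with no filter on low counts and 14 in a fit of the 6 libraries alone, which also called 1 higher. Hk2 (chromosome 6), the hexokinase of growing cells, had 390.0, 397.9 and 371.1 CPM in DKO and 505.4, 513.0 and 441.6 CPM in Tet1KO (-0.33 ± 0.08, adjusted p 0.00833), and kept its call throughout, as did Pfkp. Slc2a3 (chromosome 6), a glucose transporter, had 1110.0, 1118.8 and 1080.4 CPM in DKO and 1559.9, 1479.2 and 1239.6 CPM in Tet1KO (-0.37 ± 0.10, adjusted p 0.0157), and lost its call without DKO A, DKO C, Tet1KO A or Tet1KO B. The median of all genes on chromosome 6 was -0.165 on the same scale.

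Genes of amino acid supply and the integrated stress response, which ATF4 controls, were lower in 19 (35.2%) and higher in 3 (5.56%) of 54. Among all genes 7.12% were lower and 7.86% higher. The retained set held 9 and 1. The count of lower ones was 11 without DKO A or Tet1KO A and 10 without DKO C, and of higher ones 1 without DKO C or Tet1KO C. Atf4 missed the threshold (-0.15 ± 0.06, adjusted p 0.0904), which it passed without Tet1KO C (adjusted p 0.0353). Mthfd2 (chromosome 6), the mitochondrial folate enzyme, had 46.4, 48.9 and 47.9 CPM in DKO and 88.4, 67.7 and 65.4 CPM in Tet1KO (-0.63 ± 0.09, adjusted p 0.000122). Phgdh, which opens serine synthesis, had 115.2, 123.9 and 111.8 CPM in DKO and 171.6, 154.7 and 147.8 CPM in Tet1KO (-0.43 ± 0.07). Gpt2 (chromosome 8), the mitochondrial alanine transaminase, had 21.0 to 22.5 CPM in DKO and 30.6 to 39.4 CPM in Tet1KO, and Gars (chromosome 6), the glycyl-tRNA synthetase, fell by 0.36 ± 0.06. Among transporters the glutamine carriers Slc1a5 (-0.41 ± 0.08) and Slc38a1 (-0.32 ± 0.05) fell beside Slc38a5, whereas Slc1a4 (chromosome 11), a carrier of neutral amino acids, rose, with 57.8 to 61.5 CPM in DKO and 43.0 to 49.6 CPM in Tet1KO (0.34 ± 0.08, adjusted p 0.00586).

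Replication genes were lower by small amounts. Of 51 tested none was higher (2 were when scaled by library size alone) and 17 were lower (33.3%, beside 7.12% of all genes). The retained set held 5 of these, and the count of lower ones was 7 without DKO A, DKO C or Tet1KO A. In the licensing role, which loads the MCM helicase on origins, 8 of 15 were lower (5 without DKO A or DKO C and 4 without Tet1KO A). Mcm5 (chromosome 8) had 539.7, 547.8 and 521.2 CPM in DKO and 692.9, 643.9 and 655.1 CPM in Tet1KO (-0.31 ± 0.05, adjusted p 0.000492). Mcm3 had 492.4 to 504.0 CPM in DKO and 566.0 to 645.3 CPM in Tet1KO (-0.27 ± 0.06), with Mcm4 at -0.24 ± 0.05 and Mcm7 at -0.21 ± 0.05. Pcna, the sliding clamp, had 342.7, 340.1 and 331.7 CPM in DKO and 466.8, 401.2 and 423.7 CPM in Tet1KO (-0.35 ± 0.06, adjusted p 0.00115). Off chromosomes 6, 8 and 11, 10 of 41 replication genes were lower.

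Germline genes, many of them held silent by promoter methylation in somatic cells, were called in both directions. Of 69 listed 50 passed the filter, 13 were higher (26.0%) and 8 lower (16.0%), beside 7.86% and 7.12% of all genes. Of these 11 and 4 were in the retained set (4 were lower without DKO A and 5 without DKO C). Meioc (chromosome 11, 102665351 to 102682240), which keeps germ cells in meiosis, stood at 25.2, 23.1 and 25.3 CPM in DKO and at 8.59, 7.94 and 10.8 CPM in Tet1KO, 2.70-fold (1.43 ± 0.10, adjusted p 1.92e-07). In the piRNA role Tdrd1 had 2.36, 2.56 and 2.39 CPM in DKO and 0.682, 0.837 and 0.878 CPM in Tet1KO (1.59 ± 0.21), and Ddx4, the Vasa helicase, had 12.4 to 13.6 CPM in DKO and 7.03 to 8.28 CPM in Tet1KO (0.82 ± 0.11). In the role of recombination Tex15 (chromosome 8) had 14.3 to 16.2 CPM in DKO and 6.44 to 8.95 CPM in Tet1KO, and Mei1 rose by 1.65 ± 0.30 at under 2 CPM. Syce1, of the synaptonemal complex, and Sohlh2, a regulator of early germ cells, fell by 1.07 ± 0.20 and 1.24 ± 0.28 at under 5 CPM.

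The subcortical maternal complex of the oocyte had 6 of 10 genes tested, none higher and 3 lower. Khdc3 (chromosome 9, 73101381 to 73106631), also called Filia, stood at 3.82, 5.06 and 3.72 CPM in DKO and at 25.4, 32.3 and 19.5 CPM in Tet1KO, a 6.16-fold higher level in Tet1KO with no overlap (-2.62 ± 0.24, adjusted p 2.82e-06). Ooep, its partner on the same chromosome, had 60.5, 65.6 and 59.6 CPM in DKO and 74.3, 73.2 and 83.1 CPM in Tet1KO (-0.31 ± 0.07, adjusted p 0.00790). Nlrp4f had 2.63, 2.41 and 2.65 CPM in DKO and 4.0, 3.83 and 6.74 CPM in Tet1KO (-0.92 ± 0.26, adjusted p 0.0236), lost its call without any 1 DKO library or Tet1KO C, and shares sequence with other Nlrp4 copies.

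The promoters of Khdc3 and Pfkp, which both fell, are shown because they differ in CpG, the site that TET and DNMT enzymes act on. Each is the 250 bases before the start site that the same RefSeq table lists, with CG in capitals. For both genes that start lies inside the full span given above, so the window is not upstream of the whole gene, and sequence before other starts was not read. Khdc3 spans chr9:73102148-73102397 on the plus strand and Pfkp spans chr13:6648772-6649021 on the minus strand.
Khdc3: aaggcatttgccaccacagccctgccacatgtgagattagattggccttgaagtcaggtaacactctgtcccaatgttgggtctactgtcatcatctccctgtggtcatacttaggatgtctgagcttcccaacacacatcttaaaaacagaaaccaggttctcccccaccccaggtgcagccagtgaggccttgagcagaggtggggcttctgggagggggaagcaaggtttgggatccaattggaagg
Pfkp: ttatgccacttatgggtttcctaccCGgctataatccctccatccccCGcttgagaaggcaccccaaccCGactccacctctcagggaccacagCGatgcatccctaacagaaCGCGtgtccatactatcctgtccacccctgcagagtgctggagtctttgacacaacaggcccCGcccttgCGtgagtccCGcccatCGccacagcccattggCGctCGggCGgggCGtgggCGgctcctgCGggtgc
Khdc3 held 0 and Pfkp 16 CpG in these windows. Methylation was not measured. RefSeq's table gave a window for 73.1% of the tested genes, so a check of CpG content over all genes called is void, and the next values describe only genes with an entry. From 250 bases before to 50 after the start, the median was 14 CpG over 207 genes called and over 2-fold higher, 9 over 160 called and over 2-fold lower and 20 over 9948 not called. The last had a higher level, and among genes of 1 to 10 CPM the medians were 13, 9 and 17 in the same order. Under 1 CPM they were 14, 8.5 and 9 (89, 80 and 1979 genes), so genes that rose were not poorer in CpG there. At 10 CPM or more they were 17.5, 16 and 22 (10, 15 and 5859 genes).

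Of 52 imprinted genes 41 passed the filter, 6 were higher (14.6%) and 5 lower (12.2%), beside 7.86% and 7.12% of all genes, and 4 and 3 were in the retained set, beside 3.89% and 2.80% of all genes. With no filter on low counts 10 were higher, and without Tet1KO A or Tet1KO C 3 were lower. Among maternally expressed genes Meg3, a long non-coding RNA, stood at 248.1, 250.9 and 236.5 CPM in DKO and at 134.4, 164.6 and 149.7 CPM in Tet1KO (0.71 ± 0.09, adjusted p 3.52e-05). Grb10 (chromosome 11, 11930499 to 12037428), an adaptor that dampens insulin signalling, had 110.6, 106.0 and 112.7 CPM in DKO and 52.7, 51.2 and 69.2 CPM in Tet1KO (0.93 ± 0.12). Phlda2, a brake on placental growth, fell to 11.4 to 13.7 CPM in DKO, against 21.5 to 23.6 CPM in Tet1KO (-0.88 ± 0.10). Among paternally expressed genes Igf2, a growth factor, had 3.65, 4.33 and 3.44 CPM in DKO and 8.71, 5.50 and 8.92 CPM in Tet1KO (-1.02 ± 0.18), Nnat had 27.3 to 31.3 CPM in DKO and 15.5 to 18.4 CPM in Tet1KO, and Peg13 had 10 counts in DKO against 81 in Tet1KO. Nnat and Peg13 lie in introns of other genes, from whose reads they may not be told apart.

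Matrix and adhesion genes had 14 higher (31.1%) and 4 lower (8.89%) of 45 tested, beside 7.86% and 7.12% of all genes. Of these 4 and 2 were in the retained set. The count of higher ones was 7, 7 and 9 without DKO A, B and C and 6 and 8 without Tet1KO A and B, and of lower ones 2 without DKO B or C or Tet1KO A or B. Col18a1, a basement membrane collagen, had 348.8, 366.5 and 342.5 CPM in DKO and 211.4, 232.2 and 271.3 CPM in Tet1KO (0.56 ± 0.11, adjusted p 0.00185). Fbln2 (chromosome 6), a matrix glycoprotein, had 10.6 to 11 CPM in DKO and 4.78 to 6.53 CPM in Tet1KO (0.88 ± 0.13). Itgb1 (chromosome 8), the common β-integrin, fell to 117.2 to 124.2 CPM in DKO, against 129.7 to 156.3 CPM in Tet1KO (-0.29 ± 0.07).

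The calls were spread unevenly over chromosomes. On chromosome 6, 157 of 724 genes (21.7%) were lower and the median log2 fold change was -0.165, and on chromosome 8, 135 of 824 (16.4%) were lower and the median was -0.10. On chromosome 11, 170 of 1327 genes (12.8%) were higher and the median was 0.06. On the other 17 chromosomes with enough genes, 3.63% to 7.94% were lower, 5.03% to 10.2% were higher and medians ran from -0.03 to 0.01. Chromosomes 6 and 8 held 25.6% of all lower calls. On chromosome 6 the median gene stood above the DKO mean by 0.23, 0.11 and 0.10 in Tet1KO A, B and C, and on chromosome 8 by 0.15, 0.10 and 0.07, while the DKO libraries lay within 0.02 of their own mean. On chromosome 11 the Tet1KO libraries stood at -0.11, -0.03 and -0.05. All these differences are taken from the DKO mean, so they cannot show which group departs. A change in the number of these chromosomes in part of the cells of either group was not tested. With the 3 chromosomes left out of the fit, 996 genes were higher and 744 lower, and the p53 list had 22 higher and 0 lower of 31 and the cholesterol and fatty acid list 16 lower of 37.

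**Figure D5:**
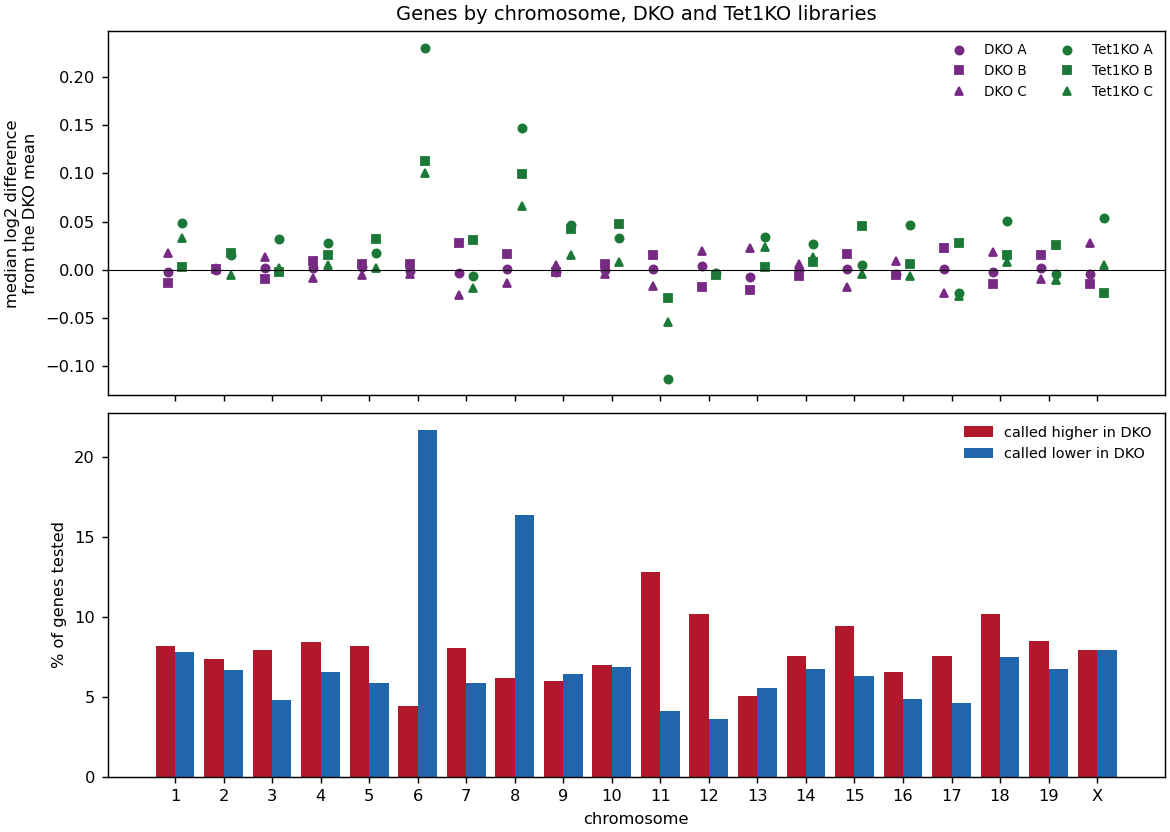
Top, the median log2 difference of genes on each chromosome (horizontal axis) from the DKO mean, with 1 purple point per DKO library and 1 green point per Tet1KO library. Bottom, the share of tested genes called higher (red bars) and lower (blue bars) in DKO, in percent. All 3 Tet1KO libraries stand above DKO on chromosomes 6 and 8 and below it on chromosome 11, with Tet1KO A the farthest.

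On the Y chromosome Eif2s3y, a translation initiation factor, stood at 39.6, 35.6 and 40.3 CPM in DKO and at 66.2, 67.9 and 60.9 CPM in Tet1KO (-0.75 ± 0.09, adjusted p 2.83e-05). Its neighbours did not follow, since Ddx3y had 58.0 to 61.1 CPM in DKO and 46.8 to 63.2 CPM in Tet1KO (0.13 ± 0.11) and Uty 26.2 to 32.9 CPM in DKO and 25.6 to 28.7 CPM in Tet1KO (0.11 ± 0.14), and neither was called.

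The N1300T libraries share the Tet1 knockout label, and their levels can be set beside both groups. They held far less RNA of the Y-linked Eif2s3y, Ddx3y and Uty than DKO, as given below. DKO differed from the mean of both N1300T preparations in 597 genes (3.73%), with the same test in the same fit. Lef1 averaged 52.2 ± 2.01 CPM in DKO, 43.5 ± 6.66 in N1300T 49, 53.8 ± 3.56 in N1300T 81 and 16.3 ± 2.37 in Tet1KO (SD, n = 3 each), and DKO did not pass the test against N1300T (0.11 ± 0.09, adjusted p 0.524). Tbx15 averaged 2.70 ± 0.14 CPM in DKO, 3.28 ± 0.20 in N1300T 49, 3.42 ± 0.60 in N1300T 81 and 0.178 ± 0.0769 in Tet1KO, and Dnmt3a 39.4 ± 1.13, 41.7 ± 3.61, 46.7 ± 3.23 and 68.1 ± 5.98 CPM in the same groups. Neither passed the test of DKO against N1300T (adjusted p 0.289 for Tbx15 and 0.186 for Dnmt3a). Mdm2 averaged 221.9 ± 4.08 CPM in DKO, 176.0 ± 21.1 in N1300T 49, 163.3 ± 29.6 in N1300T 81 and 150.9 ± 24.6 in Tet1KO, and DKO was higher than N1300T (0.39 ± 0.10, adjusted p 0.0396). Meioc averaged 24.6 ± 1.22, 18.6 ± 1.24, 17.0 ± 0.39 and 9.09 ± 1.47 CPM in the same order, and was likewise higher in DKO than in N1300T (0.47 ± 0.08, adjusted p 0.00502).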

How the data were processed

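The members, gene lists and tests were chosen with earlier results of these data known. The authors deposited 1 table of raw counts by gene symbol, not normalized. The submitters' processing notes name mm10 and DESeq2, and the aligner, counter, annotation and strand setting are not stated. Low counts were more often even than odd (20282 entries of 2 against 5990 of 1 and 3467 of 3), as if both mates of most fragments were counted, so counting error is understated and a fit with halved counts was run.

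One fit of all 12 libraries in 4 groups used edgeR 4.0.16 (R 4.3.3, limma 3.58.1), TMM factors, filterByExpr, 2-sided quasi-likelihood tests (residual df 8, prior df 9.11) and Benjamini-Hochberg adjustment over 16014 genes. The biological coefficient of variation was 0.0859. In counts simulated for DKO against Tet1KO over 16014 genes, 100 of 100 genes changed 2-fold and 97 of 100 changed 1.5-fold were called, beside 11 unchanged ones. The changed genes were drawn above a cut on average level, and every gene had the same spread. No library or chromosome was made to deviate, so this recovery does not cover genes of low level or such shifts. CPM used TMM-scaled library totals, and chromosomes came from RefSeq GRCm38.p6 for 97.4% of tested genes. In all, 18 alternatives were run. The letters A, B and C did not pair DKO with Tet1KO, since same-letter deviations correlated at -0.0118, 0.0366 and -0.00459.

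Named genes were the 10 largest rises and falls with a mean of 1 CPM or more where higher and no overlap, the 8 largest of each at 50 CPM or more, and members of 15 lists and 15 transcription factor families, up to 4 called by adjusted p per role. Some genes that this rule takes are not reported here. Within roles, calls that held with every library left out were favoured after values were seen.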

Additional observations from a re-analysis of the deposited data

Results flagged for a closer look

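Of the 156 genes reported here, 30 also differed between DKO and the mean of both N1300T preparations, which tests whether DKO and N1300T changed unequally against the shared Tet1KO libraries (edgeR, adjusted p under 0.05). Over all genes tested the count was 597 of 16014 (3.73%). These shares are not comparable, since reported genes were mostly chosen as differing from Tet1KO and both tests use the same DKO libraries. Values are log2 differences, DKO minus N1300T.

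Tet2 was lower in DKO than in N1300T by this measure (-0.55 ± 0.08). The imprinted genes Nnat (1.15 ± 0.11), Igf2 (0.94 ± 0.16) and Grb10 (0.85 ± 0.10) were higher, and Peg13 (-4.50 ± 0.39) was lower. Wnt8a (1.32) and Dkk3 (-0.42) of the Wnt list went in opposite directions. Of the p53 network Mdm2 (0.39), Pmaip1 (0.37), Trp53inp1 (0.32) and Ercc5 (0.23) were higher in DKO. Of lipid synthesis Fdps (-0.34) and Insig1 (-0.34) were lower and Me1 (0.26) was higher. Meioc (0.47) and Nlrp4f (0.88) of the germline list were higher.

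Among transcription factors Tbx20 (0.42) was higher and Prdm14 (-0.33) lower. Krt8 (0.53), the fibroblast marker Acta2 (1.51 ± 0.37), Col18a1 (0.35), Slc1a4 (0.24) and Gbp2b (1.35) were higher in DKO, and Trpm1 (-1.66), Rnf213 (-0.89) and Fam25c (-0.40) were lower. Zfp263 had a fitted difference of 5.98, which is no bound, since it stood at 0.516 to 0.681 CPM in DKO and at 0 CPM in 4 of the 6 N1300T libraries. The Y-linked genes Eif2s3y (6.88 ± 0.12), Ddx3y (5.18) and Uty (4.75) were far higher in DKO than in N1300T. The N1300T levels set beside DKO for other genes thus come from libraries that also differ in Y-linked RNA. The cause was not tested.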

How the results depend on the processing

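The comparison gave 2399 calls, 1259 higher and 1140 lower in DKO, and 320 over 2-fold higher and 230 over 2-fold lower. A test against a fold of 1.5 gave 238 calls, 134 higher and 104 lower, with 127 and 97 over 2-fold. Leaving out 1 library gave 1386 to 2386 calls, 751 to 1250 higher and 565 to 1136 lower, with 232 to 391 and 158 to 241 over 2-fold. Without chromosomes 6, 8 and 11 the lower calls were 744, and with at least 1 CPM in 3 libraries 135 genes were over 2-fold lower. Both fits tested fewer genes. Off those chromosomes the fit of all genes had 793 lower calls, so calls on genes kept in the fit changed too. The causes of these moves were not tested. RLE factors, no filter, DESeq2, limma voom, halved counts and a fit of the 6 libraries alone gave 2393 to 2913 calls. Scaling by library size alone shifted the median of all genes by 0.033 and moved the share of higher calls to 63.8%, against 52.5%. The replicate block gave 3281 calls with 12 libraries and 2891 with 6. Between DKO and Tet1KO its letters were not seen to pair, since DKO A correlated best with Tet1KO C and DKO C with Tet1KO A. DKO B correlated best with Tet1KO B (0.0366). Letters of the N1300T libraries were not checked. With the block and 12 or 6 libraries Tet1 was called higher (0.20 in both, adjusted p 0.0251 and 0.0432), 16 and 17 glycolysis genes were lower and 10 and 10 imprinted genes higher. With 12, 5 genes of the TET and methylation list, 11 signalling feedback genes and 2 glycolysis genes were higher. Of 156 genes reported, 140 were called, and none of these reversed under any of the 18 alternatives. Apart from the test against 1.5-fold, which 47 passed, 128 kept their call under each. Reported genes were favoured in part for holding with each library left out, so these counts do not speak for all calls. Of all calls, 623 of 1259 higher and 448 of 1140 lower held with each library left out. Of these 156, the genes not called that passed under at least 1 alternative were Tet1, Tcf7, Acta2 and Atf4. Tcf7 did so under 7, among them DESeq2 (adjusted p 0.0473), library size alone (0.0333), no filter (0.0151) and the 6 libraries alone (0.0174). Library size alone called 2 replication genes higher, and 5 alternatives, DESeq2 among them, called 1 fibroblast marker lower. Among genes not called, 3 changed sign. Pou5f1 turned to 0.00 and Klf4 to 0.01 with library size alone. With 1 library left out Pou5f1 ran from -0.09 to 0.02 (positive without DKO C), Klf4 from -0.08 to 0.03 (positive without Tet1KO B) and Sox2 from -0.02 (without Tet1KO A) to 0.15.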

Other observations

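Cytosolic ribosomal protein genes, none of which was higher in DKO, had 8 of 85 called lower (9.41%, beside 7.12% of all genes), with 3 in the retained set and 9 without DKO B, and 4, 3 and 3 without DKO A, DKO C and Tet1KO A. Of 78 tested nuclear genes of oxidative phosphorylation 16 were lower (20.5%, beside the same 7.12%) and none higher, with a median log2 fold change of -0.19. That count was 2, 19 and 0 without DKO A, B and C and 4, 10 and 12 without Tet1KO A, B and C, so none of the 16 held its call throughout.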
